A study of Mus musculus with 9 samples.

Results

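The HOX cluster genes are the protein-coding rows of the deposited count table named HOXA, HOXB, HOXC or HOXD followed only by digits, 39 of the 58735 genes listed. There are 11 in HOXA, 10 in HOXB, 9 in HOXC and 9 in HOXD. Their RNA was read in Caki cells, an established human line of clear cell renal carcinoma, in 3 groups of 3 libraries, 9 in all. The YAP1-S127A group carried a retroviral vector for YAP1 with alanine in place of serine 127, the residue whose phosphorylation by the Hippo kinases LATS1 and LATS2 holds YAP1 in the cytoplasm. The YAP1 group carried the same kind of vector with wild-type YAP1, and the MX group carried the empty vector. The labels call the S127A form constitutively active. Cells of all groups were transfected and then selected with G418. Whether the 3 libraries of a group are separate cultures, and how many selected clones they hold, is not in the labels. The p-values therefore describe the spread among these libraries, part of which may be technical. Mouse is named as the organism, but the genes carry human Ensembl identifiers. Positions below are those of the deposited table, and no source used here names their human build.

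HOX genes encode homeodomain transcription factors that give cells their address along the body axis. They sit in clusters on separate chromosomes, in an order along the DNA that matches their order of use from head to tail, and genes with the same number in different clusters are paralogues. Genes at the low-number end are called anterior here (1 to 3), those in the middle central (4 to 8) and those at the high-number end posterior (9 to 13). Adult cells and tumour lines keep a HOX pattern that reflects where they came from. In the mouse the paralogues of group 11 are needed for the kidney to form, and the Hoxb7 promoter is active in the ureteric bud. HOX proteins bind DNA with partners of the TALE homeodomain class, the PBX and MEIS factors, and Polycomb and trithorax proteins keep the clusters off or on. Retinoic acid switches on the anterior end of the clusters.

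The libraries held 15789722 to 24811150 counts, so that 3 counts stand for 0.107 to 0.229 CPM, the counts of a gene relative to a TMM-scaled library total. The introduced gene YAP1 averaged 688 ± 55 CPM with YAP1-S127A, 1220 ± 268 CPM with YAP1 and 99.9 ± 8.64 CPM in MX (SD, n = 3 each), endogenous and vector transcripts together. The kidney lineage factor PAX8 averaged 262 CPM with YAP1-S127A, 297 CPM with YAP1 and 285 CPM in MX, while CA9, a hypoxia target typical of clear cell tumours, was at or below 0.489 CPM in each group. Mitochondrially encoded genes held 7.40 to 29.6% of counts in YAP1-S127A libraries, 3.50 to 11.4% in YAP1 libraries and 1.9 to 6.6% in MX libraries. MX replicate 1 had 25491 genes detected, against 22115 and 22738 in the other MX libraries. Summed over 7 fibroblast markers, of which PDGFRA was at 0 in all YAP1-S127A libraries, levels ran from 2146 to 3954 CPM with YAP1-S127A, 1336 to 1689 CPM with YAP1 and 774 to 1309 CPM in MX. Of 6 tested fibroblast markers 5 rose in YAP1-S127A against MX and 1 in YAP1 against MX. The 11 renal markers summed to 5776 to 8023 CPM with YAP1-S127A, 5390 to 6652 CPM with YAP1 and 5901 to 7336 CPM in MX. Of 9 tested, 3 fell and 1 rose in YAP1-S127A against MX, and 3 fell in YAP1 against MX. Beside these fibroblast and renal counts, 9.53% of all tested genes rose and 8.84% fell in YAP1-S127A against MX. In YAP1 against MX 3.23% of all tested genes rose and 3.58% fell. In every library the 4 endothelial markers summed to at most 1.78 CPM and the 5 leukocyte markers to at most 0.544 CPM, CD3E being at 0 in every library, LYZ and KDR in all YAP1-S127A libraries and PAX2 in all YAP1 and MX libraries. The 4 melanocyte and neural markers summed to 18.1 to 20.8 CPM with YAP1-S127A, 18.6 to 20.3 CPM with YAP1 and 24.7 to 27.3 CPM in MX, where SOX10 was at 0. The part of the mitochondrial share and of the marker lists in the HOX results was not tested, apart from the fits with that share as a covariate given below.

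All clusters were transcribed, with HOXB at the highest level. Levels between genes are compared per length, as CPM divided by the listed gene length in kilobases, written below as length-scaled units. On that scale HOXB held on average 57.6% of the HOX total in YAP1-S127A libraries, 56.6% in YAP1 libraries and 52.6% in MX libraries, and HOXA held 23.6% with YAP1-S127A, 25.2% with YAP1 and 28.5% in MX. HOXC held 12.4 to 12.8% and HOXD 5.69 to 6.51% on average in the 3 groups. Of raw HOX counts, HOXB held 54.2% with YAP1-S127A, 52.9% with YAP1 and 49.6% in MX, and HOXA held 28.7% with YAP1-S127A, 30.7% with YAP1 and 33.4% in MX. HOXA shares per length ran from 22.9 to 24.6% in YAP1-S127A libraries and from 26.4 to 30.2% in MX libraries, with no overlap, and those of raw counts did not overlap either.

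**Figure D1:**
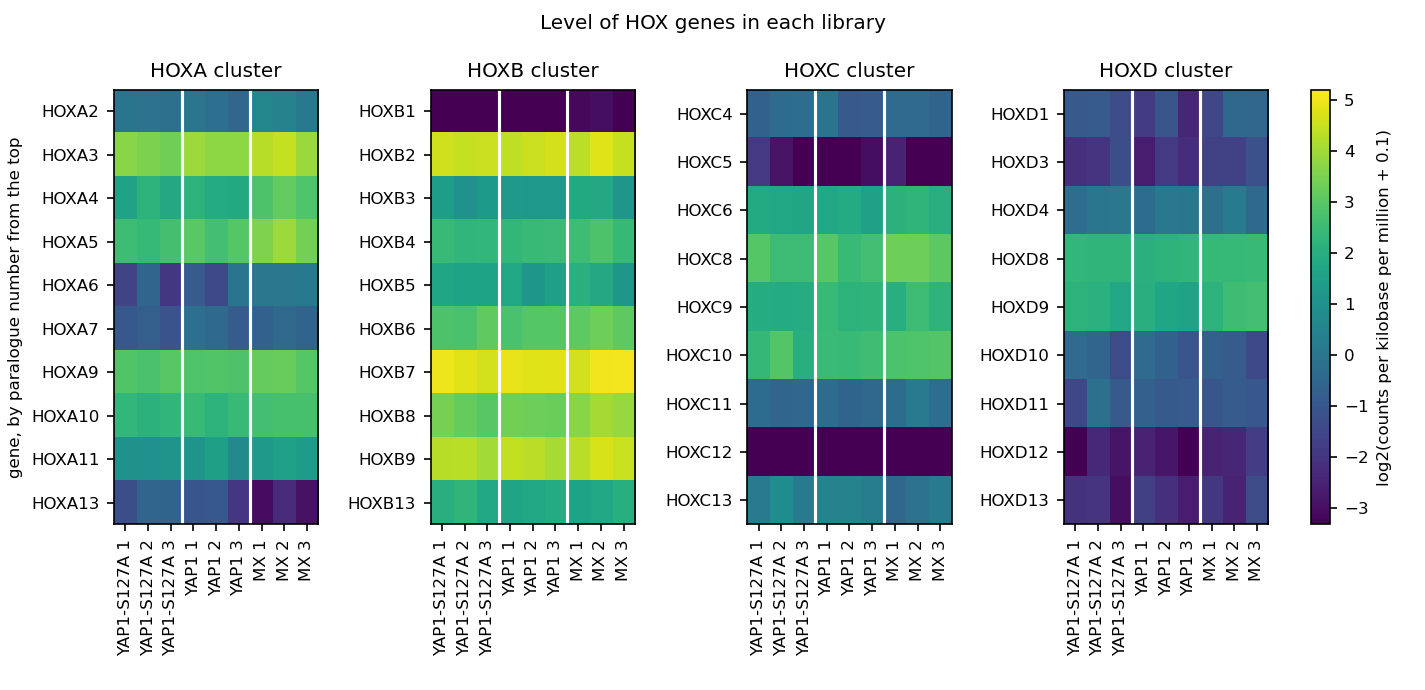
Level of HOX genes (rows, by paralogue number from the top) in each of the 9 libraries (columns), as log2 of CPM per kilobase with 0.1 added, 1 panel a cluster. HOXB7, HOXB2 and HOXB9 are the brightest rows, HOXC12 is at 0 throughout, and within the HOXA panel HOXA13 is darkest in the 3 MX libraries.

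The 2 highest genes of each cluster per length were HOXA3 and HOXA5, HOXB7 and HOXB2, HOXC8 and HOXC10, and HOXD8 and HOXD9. HOXB7, whose mouse homologue marks the ureteric bud, led all members with 28.0 ± 3.41 length-scaled units in YAP1-S127A, 28.5 ± 1.23 in YAP1 and 29.9 ± 4.59 in MX (SD, n = 3 each). HOXB2, an anterior factor used in the hindbrain, followed with 22.8 ± 1.31 in YAP1-S127A, 22.9 ± 2.22 in YAP1 and 23.1 ± 3.76 in MX. HOXB9, a posterior factor, had 18.6 ± 2.03 in YAP1-S127A, 19.3 ± 2.10 in YAP1 and 22.6 ± 2.77 in MX. In MX the means of HOXB2 and HOXB9 differed by less than either SD, so their order there is not settled. Without length scaling HOXA3 was the highest of all members, with a mean of 63.6 CPM over the 9 libraries, followed by HOXB2 with 53.5 CPM and HOXB9 with 52.1 CPM, both above HOXB7, and HOXA9 stood second in HOXA. The group 11 genes were low. HOXA11 averaged 1.97 length-scaled units in YAP1-S127A, 2.14 in YAP1 and 2.55 in MX, and HOXC11 and HOXD11 stayed between 0.413 and 0.836 in all groups.

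Silent or nearly silent members lay at scattered positions. HOXC12 had 0 counts in all libraries, which allows a level of up to 0.107 to 0.229 CPM per library. HOXB1 had 2 counts over the 9 libraries, HOXC5 had 10, HOXD12 had 18 and HOXD13 had 57. These 5 members did not pass the filter on low counts and were not tested. The other 34 were tested in a fit of all 15492 genes that passed.

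Against MX, most tested HOX genes had lower levels with either construct, and the gene at the far posterior end of HOXA went the other way. With p-values from edgeR (quasi-likelihood), adjusted after Benjamini and Hochberg and called under 0.05, 7 of 34 fell and 2 rose in YAP1-S127A against MX, with 25 not called. That is 20.6% lower and 5.88% higher, beside 8.84% lower and 9.53% higher among all tested genes, 18.4% in either direction. In YAP1 against MX 4 fell, 1 rose and 29 were not called, 11.8% lower and 2.94% higher, beside 3.58% lower and 3.23% higher among all tested genes, 6.81% in either direction. The median log2 fold change of the 34 was -0.32 with YAP1-S127A and -0.26 with YAP1, where all tested genes had medians of -0.00449 and -0.00361. In each comparison 26 of 34 values were negative, against 50.5% of all tested genes. These comparisons share the MX libraries. The 3 libraries of YAP1-S127A lay wholly below those of MX for 14 of 34 members, 41.2%, and wholly above for 3, 8.82%, beside 16% and 16.7% of all tested genes. For YAP1 the counts were 15, 44.1%, and 2, 5.88%, beside 12% and 12.1%. Scaling by total counts instead put the median of the tested genes at -0.28 in YAP1-S127A against MX, and 18 HOX genes were lower and 1 was higher there. Of all 15492 tested genes 3836 were then lower and 611 higher, against 1369 and 1476 with TMM. The rise in lower calls was therefore not confined to HOX genes.

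**Figure D2:**
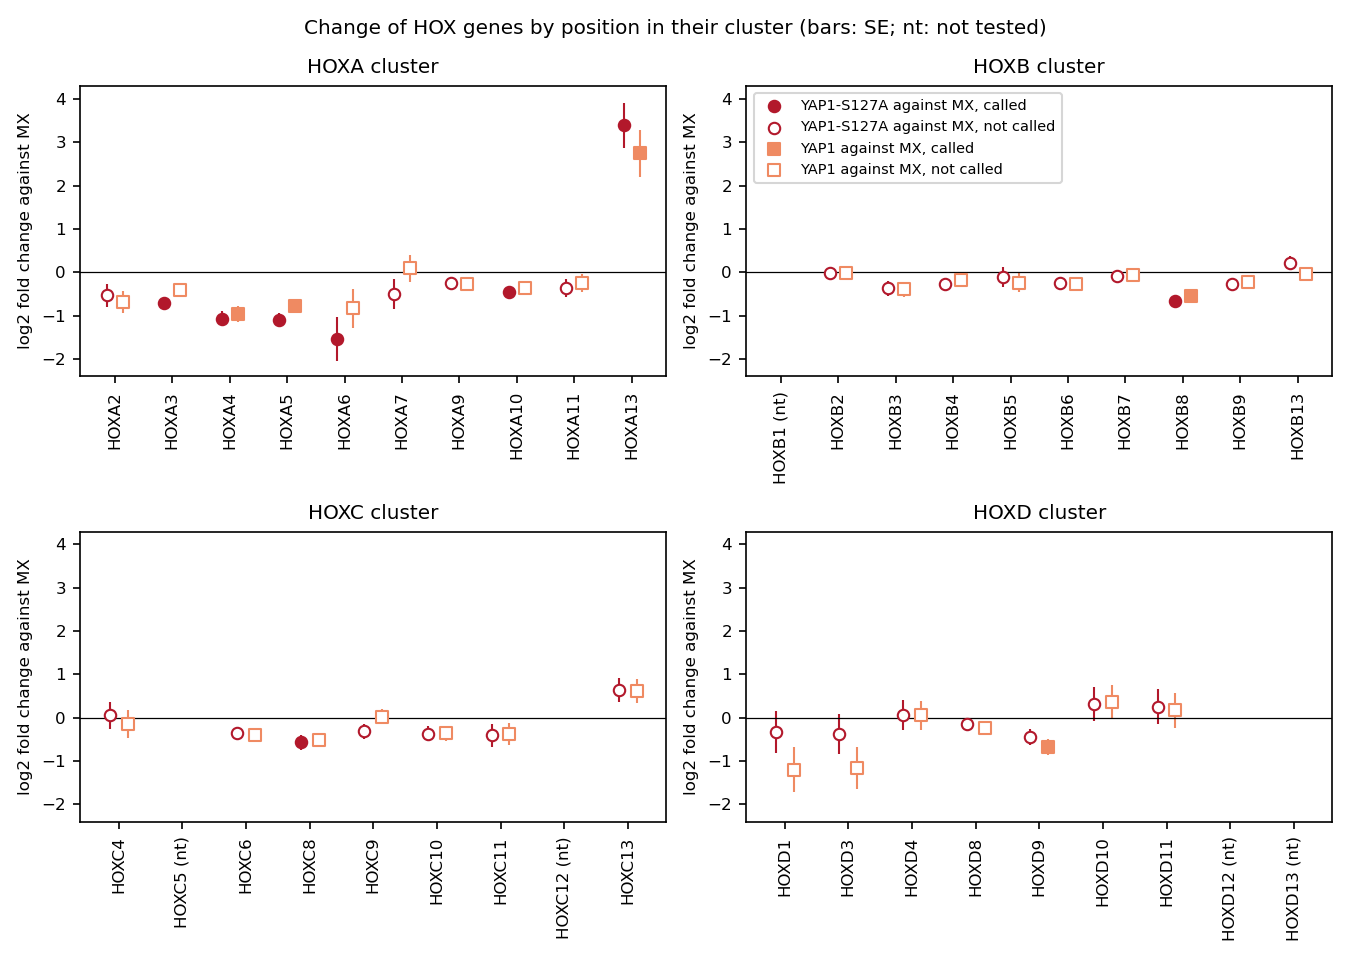
Log2 fold change against MX of tested HOX genes, ordered by paralogue number within their cluster, for YAP1-S127A (circles, left of each pair) and YAP1 (squares). Bars are standard errors, filled symbols passed an adjusted p of 0.05, and in HOXA the YAP1-S127A values lie at -1.54 for HOXA6 and 3.39 for HOXA13.

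HOXA held most of the calls. Of its 11 genes, all tested, 5 fell and 2 rose in YAP1-S127A against MX and 2 fell and 1 rose in YAP1 against MX, with medians of -0.50 for YAP1-S127A and -0.35 for YAP1. With YAP1-S127A that is 45.5% lower and 18.2% higher, beside 8.84% and 9.53% of all tested genes. With YAP1 it is 18.2% lower and 9.09% higher, beside 3.58% and 3.23%. The cluster lies on chromosome 7. Its summed level was 134, 123 and 122 CPM in the YAP1-S127A libraries, 151, 135 and 132 CPM in the YAP1 libraries and 185, 207 and 162 CPM in the MX libraries. The MX libraries were the highest, and neither construct's libraries overlapped them. The same held for HOXC and HOXD. HOXC sums were 44.2 to 54.3 CPM with YAP1-S127A, 49.2 to 55.9 CPM with YAP1 and 60.8 to 68.8 CPM in MX. HOXD sums were 23.3 to 26.6 CPM with YAP1-S127A, 22.0 to 23.7 CPM with YAP1 and 26.8 to 31.7 CPM in MX. For HOXB, YAP1 libraries (240 to 241 CPM) lay below MX (251 to 309 CPM), while YAP1-S127A libraries (225 to 255 CPM) overlapped MX. In RNA from bulk cultures, fewer cells that express a gene and less RNA per cell cannot be told apart.

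The largest change of any member was at the posterior end. HOXA13 (ENSG00000106031, chromosome 7 from 27193503 to 27200106, minus strand) encodes the last factor of the cluster, which acts in the distal limb, hindgut and urogenital tract. It had 21, 47 and 55 counts in the YAP1-S127A libraries, 38, 37 and 18 in the YAP1 libraries and 3, 9 and 4 in the MX libraries. As levels these were 1.6, 2.98 and 2.89 CPM with YAP1-S127A, 1.97, 2.10 and 0.799 CPM with YAP1 and 0.107, 0.544 and 0.150 CPM in MX. Every library with a construct lay above every MX library, though all levels were low. HOXA13 was 10.5-fold higher than in MX with YAP1-S127A (log2 3.39, SE 0.53, adjusted p = 0.000124) and 6.69-fold higher with YAP1 (log2 2.74, SE 0.54, adjusted p = 0.00292). Without MX replicate 2, the MX library with 9 counts, HOXA13 had 4.23 with YAP1-S127A and 3.58 with YAP1 on the log2 scale. The MX counts lie near the floor of 3, so the size of these folds is imprecise. The MX mean of HOXA13, 0.267 CPM, was below the 0.392 CPM of HOXD13 in MX, which did not pass the filter on low counts. HOXA13 was also called with both constructs in the fit without that filter.

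HOTTIP, the long noncoding RNA that starts beside HOXA13 and is known to help hold the posterior HOXA genes active, was too low for the test. It had 9, 10 and 14 counts in YAP1-S127A libraries, 4, 9 and 4 in YAP1 libraries and 1, 0 and 0 in MX libraries, which sums to 33 with YAP1-S127A, 17 with YAP1 and 1 in MX. The ratio of summed levels against MX was 49.0 (95% exact Poisson interval 8.21 to 1995) with YAP1-S127A and 20.3 (3.19 to 850) with YAP1, which covers counting error only. Fitted without a filter on low counts, its adjusted p was 3.30e-05 with YAP1-S127A and 0.0171 with YAP1. HOTTIP and HOXA13 overlap by 1532 bases on opposite strands, and although the labels name a stranded library kit, the strand setting of the counting is not given, so reads of that stretch cannot be told apart. EVX1, the homeobox gene 42594 bases beyond the cluster on the HOXA13 side, had 3 counts over the 9 libraries.

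From HOXA2 to HOXA11 the HOXA genes had lower means than in MX with either construct, HOXA7 with YAP1 excepted. HOXA3, which patterns pharyngeal organs and was the most abundant HOXA gene, was at 55.4, 49.0 and 43.5 CPM with YAP1-S127A, 66.8, 57.8 and 57.2 CPM with YAP1 and 83.5, 94.7 and 64.8 CPM in MX. Its log2 fold change was -0.72 (SE 0.14, adjusted p = 0.00107) in YAP1-S127A against MX and -0.42 (SE 0.14, adjusted p = 0.0796) in YAP1 against MX. The lowest MX library fell inside the YAP1 range, and without MX replicate 3 the YAP1 difference was called (adjusted p = 0.0233). It was also called in edgeR fits without a filter on low counts (adjusted p = 0.0402) and with replicate number as a block (0.0253).

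HOXA4, the central neighbour of HOXA3, was lower with both constructs. It was at 5.11, 7.87 and 5.94 CPM with YAP1-S127A, 7.82, 6.46 and 6.08 CPM with YAP1 and 12.3, 15.2 and 12.4 CPM in MX. All construct libraries lay below all MX libraries, with log2 fold changes of -1.07 (SE 0.18, adjusted p = 0.000309) with YAP1-S127A and -0.97 (SE 0.18, adjusted p = 0.00166) with YAP1. HOXA5, a factor of lung and gut development that acts as a tumour suppressor in breast cells, had the same order. It was at 9.91, 8.75 and 10.9 CPM with YAP1-S127A, 13.5, 10.5 and 13.1 CPM with YAP1 and 19.7, 26.1 and 18.3 CPM in MX. Its log2 fold changes were -1.11 (SE 0.16, adjusted p = 7.62e-05) with YAP1-S127A and -0.78 (SE 0.16, adjusted p = 0.00404) with YAP1. In folds, HOXA4 and HOXA5 were 2.10-fold and 2.15-fold lower with YAP1-S127A and 1.96-fold and 1.72-fold lower with YAP1.

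HOXA6 rested on few counts, 4, 12 and 4 with YAP1-S127A, 11, 6 and 25 with YAP1 and 34, 20 and 34 in MX. Its log2 fold change was -1.54 (SE 0.50, adjusted p = 0.0393) in YAP1-S127A against MX and -0.83 (SE 0.45, adjusted p = 0.327) in YAP1 against MX. The call was lost when 1 of 6 libraries was left out, which were all of MX, the first of YAP1 and replicates 1 and 3 of YAP1-S127A (adjusted p = 0.0525 to 0.200), and the value was -2.27 without YAP1-S127A replicate 2. HOXA10, a factor of the uterus and of blood progenitors, was at 18.2, 16.2 and 17.5 CPM with YAP1-S127A, 19.9, 16.5 and 19.3 CPM with YAP1 and 22.8, 24.2 and 24.2 CPM in MX. All MX libraries were above the rest, with log2 fold changes of -0.45 (SE 0.13, adjusted p = 0.0163) with YAP1-S127A and -0.35 (SE 0.13, adjusted p = 0.104) with YAP1. That call was lost without MX replicate 3 or YAP1-S127A replicate 2 or 3 (adjusted p = 0.0533 to 0.0714). HOXA2, HOXA7, HOXA9 and HOXA11 were not called in either comparison, with log2 fold changes from -0.53 to -0.25 with YAP1-S127A and from -0.69 to 0.09 with YAP1.

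**Figure D3:**
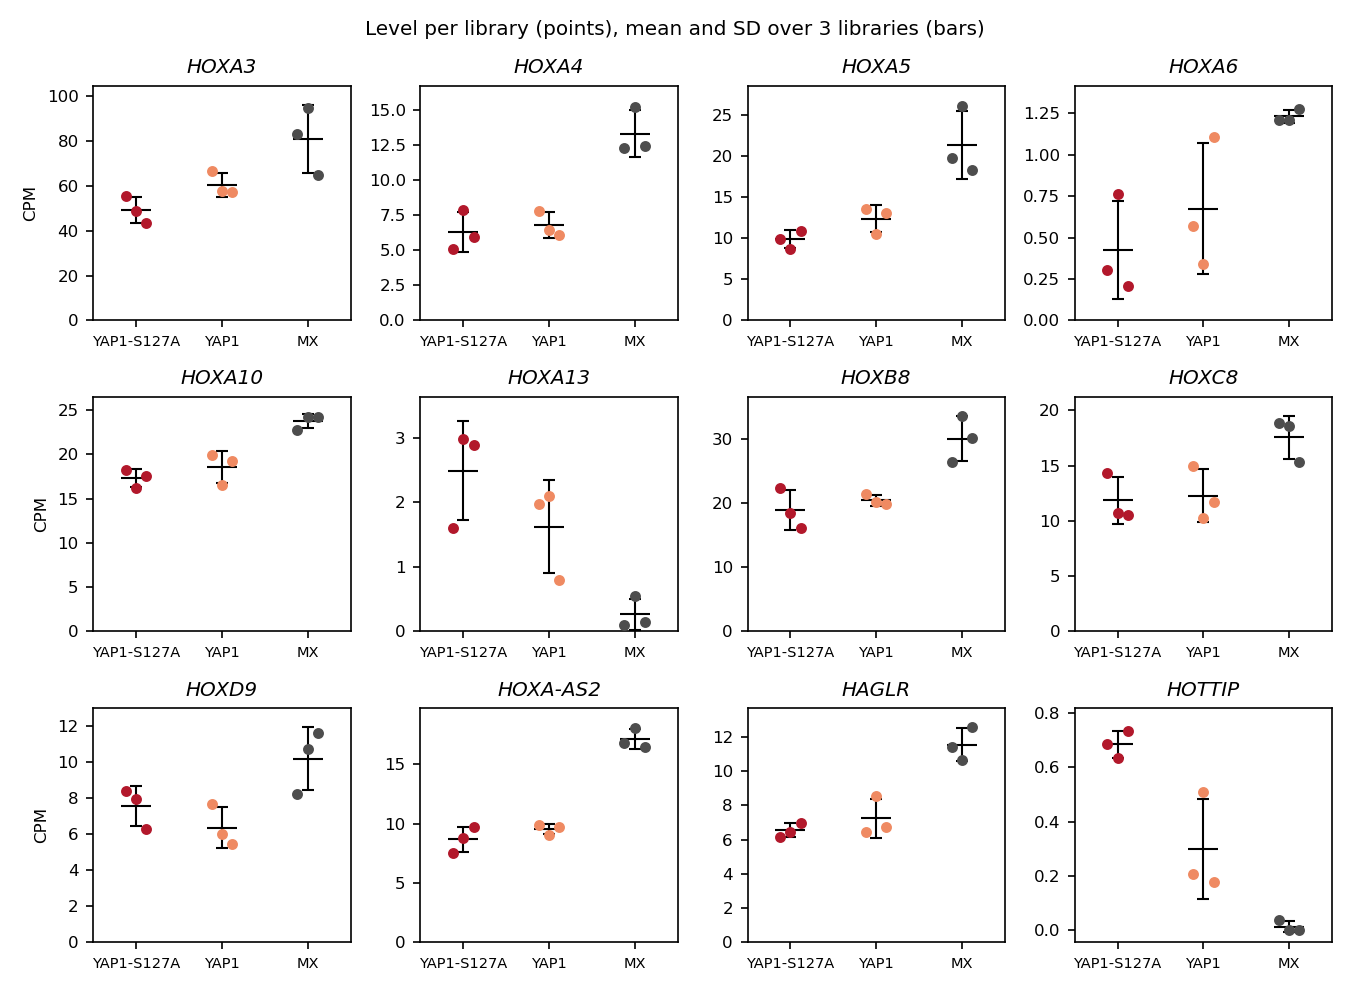
CPM in each library (points) with mean and SD over 3 libraries (bars) for 9 HOX genes called in at least 1 comparison and the noncoding RNAs HOXA-AS2, HAGLR and HOTTIP, with YAP1-S127A, YAP1 and MX from left to right. HOXA13 and HOTTIP are lowest in MX, and HOXA4, HOXA5, HOXB8, HOXA-AS2 and HAGLR have all MX points above all others.

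In HOXB only HOXB8 was called, while HOXB2 and HOXB7 had nearly equal means in the 3 groups. Of the 9 tested HOXB genes 1 fell in each comparison with MX (11.1%) and 0 rose. Among all tested genes 8.84% fell with YAP1-S127A, a share near that of HOXB, and 3.58% fell with YAP1. The HOXB medians were -0.25 with YAP1-S127A and -0.23 with YAP1. HOXB8, a central factor that also acts in myeloid progenitors, was at 22.3, 18.4 and 16.1 CPM with YAP1-S127A, 21.4, 20.1 and 19.8 CPM with YAP1 and 26.5, 33.5 and 30.2 CPM in MX. All MX libraries were the higher ones, with log2 fold changes of -0.67 (SE 0.14, adjusted p = 0.00205) with YAP1-S127A and -0.55 (SE 0.14, adjusted p = 0.0173) with YAP1. The YAP1 call was lost when replicate 2 or 3 of MX or of YAP1 was left out (adjusted p = 0.0576 to 0.0881). Its neighbour HOXB7 was at 48.0, 42.6 and 37.6 CPM with YAP1-S127A, 45.7, 42.0 and 43.0 CPM with YAP1 and 37.5, 49.4 and 49.9 CPM in MX. HOXB9 was at 50.5, 51.6 and 42.0 CPM with YAP1-S127A, 54.4, 51.4 and 43.9 CPM with YAP1 and 51.8, 66.0 and 57.4 CPM in MX. Neither was called. HOXB7 groups overlapped throughout, and HOXB9 libraries with YAP1-S127A lay just below those of MX. HOXB8 lies within the annotated span of HOXB7 on the same strand. HOXB2 was at 56.4, 50.4 and 52.9 CPM with YAP1-S127A, 48.1, 53.6 and 58.5 CPM with YAP1 and 47.2, 63.8 and 50.6 CPM in MX, also overlapping. HOXB13, the posterior factor of prostate and colon, was at 13.6, 16.2 and 11.7 CPM with YAP1-S127A, 10.5, 11.7 and 12.8 CPM with YAP1 and 10.2, 11.6 and 14 CPM in MX, and its groups overlapped.

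In HOXC 1 of 7 tested genes fell in YAP1-S127A against MX (14.3%), beside 8.84% of all tested genes. In YAP1 against MX 0 HOXC genes were called, beside 3.58% lower and 3.23% higher among all tested genes. There, 3 had an unadjusted p under 0.05, and DESeq2 and limma-voom also called 0. HOXC8, a factor of the thoracic axis, was at 14.3, 10.7 and 10.6 CPM with YAP1-S127A, 14.9, 10.3 and 11.7 CPM with YAP1 and 18.8, 18.6 and 15.3 CPM in MX. All MX libraries were above the others. The log2 fold change was -0.57 (SE 0.17, adjusted p = 0.0217) with YAP1-S127A and -0.51 (SE 0.16, adjusted p = 0.0705) with YAP1. The call was lost without MX replicate 2 or YAP1-S127A replicate 2 or 3 (adjusted p = 0.0514 to 0.121), and the YAP1 difference was called without YAP1 replicate 1 (adjusted p = 0.0346). The YAP1 difference was also called in edgeR fits with total-count scaling (adjusted p = 0.0372), without a filter (0.0370) and with replicate number as a block (0.0211). HOXC10, a posterior factor of lumbar motor neurons, was at 11.7, 17.6 and 9.35 CPM with YAP1-S127A, 12.7, 12.4 and 13.7 CPM with YAP1 and 15.8, 16.7 and 17.2 CPM in MX. MX was above YAP1, while YAP1-S127A overlapped both.

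In HOXD 1 of 7 tested genes fell in YAP1 against MX (14.3%), beside 3.58% of all tested genes. In YAP1-S127A against MX 0 HOXD genes were called, beside 8.84% lower and 9.53% higher among all tested genes. There, 1 had an unadjusted p under 0.05, and DESeq2 and limma-voom also called 0. HOXD9, a posterior factor of the limb and lumbar axis, was at 8.39, 7.99 and 6.30 CPM with YAP1-S127A, 7.67, 6.01 and 5.46 CPM with YAP1 and 8.27, 10.8 and 11.6 CPM in MX. YAP1 lay below MX, and YAP1-S127A overlapped it. The log2 fold change was -0.44 (SE 0.19, adjusted p = 0.114) with YAP1-S127A and -0.68 (SE 0.19, adjusted p = 0.0311) with YAP1. The YAP1 call was lost when replicate 2 or 3 of MX or of YAP1 was left out (adjusted p = 0.0839 to 0.180), and without MX replicate 1 the YAP1-S127A difference was called (adjusted p = 0.0321). With total-count scaling in edgeR the YAP1-S127A difference was called too (adjusted p = 0.00603). HOXD8 was the highest HOXD gene per length with either construct, while in MX HOXD9 had 5.46 ± 0.928 length-scaled units and HOXD8 5.22 ± 0.184, a difference below the SD of HOXD9. In CPM, HOXD8 was at 12.7, 12.2 and 12.2 CPM with YAP1-S127A, 10.9, 11.6 and 12.6 CPM with YAP1 and 13.4, 13.5 and 14.3 CPM in MX. All MX libraries were the higher ones, but the differences were small and not called.

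By position, most of the genes that fell were central. Counting lower calls alone, 5 of 14 tested central genes fell in YAP1-S127A against MX (35.7%) and 3 in YAP1 against MX (21.4%). Among all tested genes 8.84% fell with YAP1-S127A and 3.58% with YAP1. HOXA4, HOXA5 and HOXA6 were among the 5, and all lie within the annotated span of HOXA3. Of 7 anterior genes 1 fell with YAP1-S127A (14.3%) and 0 with YAP1, where 5 had an unadjusted p under 0.05 in either direction. Of 13 posterior genes 1 fell in each comparison (7.69%). Medians were -0.37, -0.31 and -0.28 from anterior to posterior with YAP1-S127A and -0.42, -0.26 and -0.23 with YAP1. Positions were not compared by a test.

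Paralogues did not share their values throughout. In group 4, HOXA4 had -1.07 in YAP1-S127A against MX, HOXB4 -0.26, HOXC4 0.05 and HOXD4 0.06, and HOXA4 alone was called. In group 8, HOXB8 had -0.67, HOXC8 -0.57 and HOXD8 -0.15. Group 9 had HOXA9 at -0.25, HOXB9 at -0.28, HOXC9 at -0.31 and HOXD9 at -0.44, none of them called in YAP1-S127A against MX. In group 13, HOXA13 had 3.39, HOXC13 0.63 (adjusted p = 0.121) and HOXB13 0.21 (adjusted p = 0.413). In YAP1 against MX HOXB13 had -0.03. HOXD13, not tested, averaged 0.225 CPM with YAP1-S127A, 0.294 CPM with YAP1 and 0.392 CPM in MX, and its groups overlapped. HOXC13, a factor of hair and nail, was at 2.59, 4.0 and 2.52 CPM with YAP1-S127A, 3.16, 3.17 and 2.71 CPM with YAP1 and 1.5, 1.93 and 2.44 CPM in MX, so that both constructs' libraries were above all MX libraries without a call.

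Between the constructs 0 of 34 HOX genes were called, beside 1.97% of all tested genes, 1.13% higher and 0.839% lower. The libraries of YAP1-S127A lay wholly below those of YAP1 for 2 members, 5.88%, and wholly above for 0, beside 9.34% and 10.3% of all tested genes. In that comparison 1 had an unadjusted p under 0.05 with edgeR, DESeq2 called 0 and limma-voom 0, each with 1 at an unadjusted p under 0.05. The median log2 fold change of YAP1-S127A against YAP1 was -0.00189, with 17 values negative and 17 positive. HOXA3, the gene with that p, had a log2 fold change of -0.30 (95% interval -0.59 to -0.01, adjusted p = 0.392), with its libraries lower in YAP1-S127A than in YAP1 throughout. HOXA5 had -0.33 (interval -0.67 to 0.02) and HOXA13 0.65 (interval -0.23 to 1.52). The intervals are wide beside most of the differences from MX, so the absence of a call does not show that the 2 constructs act alike. HOTTIP libraries were all higher with YAP1-S127A than with YAP1, at 0.686, 0.634 and 0.735 CPM against 0.207, 0.510 and 0.177 CPM, with an adjusted p of 0.732 in the fit without a filter.

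Antisense and long noncoding RNAs of the clusters were listed in 18 rows, of which 14 were tested. In each comparison with MX 2 of the 14 fell, 14.3%, and 0 rose, beside the 8.84% (YAP1-S127A) and 3.58% (YAP1) of all tested genes that fell. Of 5 miRNA rows in the clusters 1 was tested, MIR196A1, and it was not called. HOXA-AS2, which runs antisense across HOXA3 and HOXA4, was at 7.55, 8.75 and 9.67 CPM with YAP1-S127A, 9.85, 9.07 and 9.67 CPM with YAP1 and 16.8, 18.1 and 16.5 CPM in MX. Its log2 fold changes were -0.97 (SE 0.14, adjusted p = 7.89e-05) with YAP1-S127A and -0.84 (SE 0.14, adjusted p = 0.000738) with YAP1. HAGLR, antisense to HOXD3 and the start of HOXD1, was at 6.18, 6.47 and 6.99 CPM with YAP1-S127A, 6.43, 8.56 and 6.74 CPM with YAP1 and 11.4, 10.6 and 12.6 CPM in MX. Against MX it had -0.82 with YAP1-S127A (SE 0.16, adjusted p = 0.00150, but 0.0585 with the mitochondrial share as a covariate and 0.0517 with YAP1-S127A replicate 2 alone) and -0.68 with YAP1 (SE 0.16, adjusted p = 0.0127), and the YAP1 call was lost without MX replicate 3 or YAP1 replicate 1 or 3 (adjusted p = 0.0651 to 0.0812). For both RNAs all MX libraries were above all others. HOTAIR, the HOXC antisense RNA known to recruit Polycomb, was at 0.686, 1.40 and 0.893 CPM with YAP1-S127A, 0.829, 0.850 and 0.976 CPM with YAP1 and 1.64, 2.54 and 1.35 CPM in MX, and was not called. Of the 39 members 33 overlap another listed gene, 24 on the same strand and 25 on the opposite one. HOXA3, for instance, spans HOXA4, HOXA5 and HOXA6 on its own strand, and no source used here says how reads in shared stretches were assigned.

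Genes around the clusters had other medians, most of all around HOXA. Within 5 Mb of HOXA the 40 tested protein-coding genes other than HOX had median log2 fold changes of 0.19 (YAP1-S127A against MX) and 0.16 (YAP1 against MX), while the HOXA medians were -0.50 (YAP1-S127A against MX) and -0.35 (YAP1 against MX). Around HOXB 103 genes had medians of -0.12 for YAP1-S127A and -0.01 for YAP1, and around HOXD 40 genes had 0.07 for YAP1-S127A and 0.04 for YAP1. Around HOXC the 155 genes had medians of -0.09 for YAP1-S127A and -0.18 for YAP1, beside a median of -0.36 for HOXC in each comparison. Of these 155, 34 fell (21.9%) and 15 rose (9.68%) with YAP1-S127A, and 28 fell (18.1%) and 3 rose (1.94%) with YAP1. Among all tested genes 8.84% fell and 9.53% rose with YAP1-S127A, and 3.58% fell and 3.23% rose with YAP1. These differences between clusters and surroundings were not tested. With the regional median subtracted, an alternative chosen after seeing the data, HOXC8 had -0.48, HOXA5 -1.29 and HOXA13 3.21 in YAP1-S127A against MX.

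**Figure D4:**
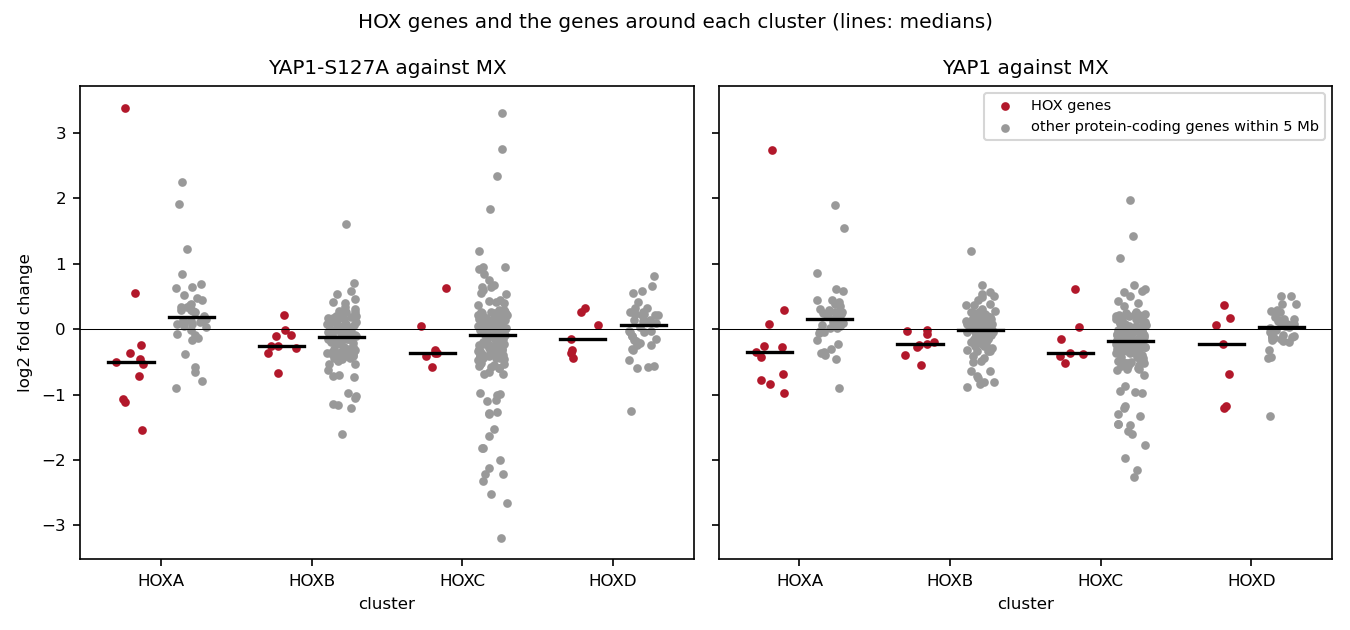
Log2 fold change against MX of tested HOX genes (red, left of each pair) and of the other tested protein-coding genes within 5 Mb of the same cluster (grey), for YAP1-S127A (left panel) and YAP1 (right panel). Black lines are medians, and the HOXA median lies at -0.50 and -0.35 below a regional median of 0.19 and 0.16.

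The 3 nearest protein-coding genes on each side of each cluster, 24 in all, had 21 tested. With YAP1-S127A 5 of the 21 fell against MX (23.8%) and 0 rose, a share above the 20.6% of HOX genes and the 8.84% of all tested genes. With YAP1 2 fell (9.52%) and 0 rose, beside 3.58% lower and 3.23% higher among all tested genes. With the mitochondrial share as a covariate, SNX10 alone of the 5 stayed called. Beside HOXA, SNX10, a sorting nexin 718664 bases away, fell in both comparisons, by 0.65 on the log2 scale with YAP1-S127A (adjusted p = 0.00225) and by 0.46 with YAP1 (adjusted p = 0.0488, and 0.0553 to 0.207 when any library but MX replicate 2 or YAP1-S127A replicate 2 was left out). The HOXA neighbours SKAP2, CBX3, HIBADH and TAX1BP1 were not called. Near HOXC, ATP5MC2, a subunit of ATP synthase, fell by 0.46 with YAP1-S127A (adjusted p = 0.0136, and 0.0593 to 0.0680 without MX replicate 2 or YAP1-S127A replicate 3) and by 0.56 with YAP1 (adjusted p = 0.00793, and 0.0752 without YAP1 replicate 3). HNRNPA1, a splicing factor, fell by 0.56 with YAP1-S127A (adjusted p = 0.00402, and 0.128 with that covariate). Near HOXB and HOXD, TTLL6 fell by 0.69 (adjusted p = 0.0293, and 0.0547 to 0.0873 without MX replicate 1 or 2 or any YAP1-S127A library) and NFE2L2, the NRF2 factor, by 0.47 (adjusted p = 0.0127, and 0.0602 to 0.0883 without MX replicate 3 or YAP1-S127A replicate 3), both in YAP1-S127A against MX.

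The DNA-binding partners of HOX proteins were nearly all uncalled. Of 10 tested TALE genes 1 fell (10%) and 0 rose in YAP1-S127A against MX, near the 8.84% of all tested genes that fell. In YAP1 against MX 0 were called, beside 6.81% of all tested genes, and between the constructs 0, beside 1.97%. The gene that fell was MEIS2, at 2.67, 2.28 and 3.68 CPM with YAP1-S127A and 5.24, 4.41 and 4.32 CPM in MX. Its log2 fold change was -0.69 (SE 0.23, adjusted p = 0.0440). That call was lost without any of 7 libraries, all but YAP1 replicate 1 and YAP1-S127A replicate 3 (adjusted p = 0.0547 to 0.161). Among 36 Polycomb and trithorax genes 5 fell and 1 rose in YAP1-S127A against MX, with a median of -0.10. In YAP1 against MX 0 were called, beside 6.81% of all tested genes, and between the constructs 0, beside 1.97%. The 16.7% called in YAP1-S127A against MX lies near the 18.4% of all tested genes. That count is no result about the list, and the genes below are given for their own values. None of the 3 named here stayed called with the mitochondrial share as a covariate. KDM6B, a demethylase of the Polycomb mark on histone H3, was at 17.8 ± 2.32 CPM with YAP1-S127A and 29.3 ± 2.14 CPM in MX (SD, n = 3 each), a log2 fold change of -0.72 (adjusted p = 0.00142, and 0.187 with the mitochondrial share as a covariate). BMI1, a Polycomb subunit, was the one that rose, by 0.51 (adjusted p = 0.0138). With libraries scaled to total counts it had 0.23 (adjusted p = 0.320), and its adjusted p was 0.0898 with the covariate and 0.0981 without YAP1-S127A replicate 3. CBX6, a Polycomb chromobox protein, fell by 0.44 (adjusted p = 0.0140, with 0.0629 to 0.0806 when MX replicate 3 or YAP1-S127A replicate 1 or 3 was dropped).

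The retinoic acid pathway changed in several members. Of 13 tested genes 4 fell (30.8%) and 2 rose (15.4%) in YAP1-S127A against MX, beside 8.84% and 9.53% of all tested genes. In YAP1 against MX 3 fell (23.1%) and 1 rose (7.69%), beside 3.58% and 3.23% of all tested genes. ALDH1A1, which makes retinoic acid, was at 129, 107 and 118 CPM with YAP1-S127A, 160, 193 and 167 CPM with YAP1 and 415, 360 and 396 CPM in MX. Its groups did not overlap, with log2 fold changes against MX of -1.73 with YAP1-S127A (adjusted p = 9.02e-09) and -1.17 with YAP1 (adjusted p = 3.27e-06), and -0.55 in YAP1-S127A against YAP1 (adjusted p = 0.0167, with 0.0582 to 0.118 when replicate 2 or 3 of either construct was left out). CRABP2, which carries retinoic acid to its receptors, was at 21.6, 23.4 and 17.0 CPM with YAP1-S127A, 35.2, 25.2 and 17.6 CPM with YAP1 and 57.9, 74.5 and 55.6 CPM in MX, with log2 fold changes of -1.6 with YAP1-S127A (adjusted p = 9.55e-05) and -1.27 with YAP1 (adjusted p = 0.00147). DHRS3, a retinaldehyde reductase induced by retinoic acid, fell by 1.6 on the log2 scale in YAP1 against MX (adjusted p = 0.00519). ALDH1A3, another enzyme that makes retinoic acid, was at 12, 9.64 and 11.1 CPM with YAP1-S127A, 7.67, 6.46 and 8.21 CPM with YAP1 and 4.96, 4.84 and 4.51 CPM in MX. Its groups did not overlap, and it rose by 1.19 on the log2 scale in YAP1-S127A against MX (adjusted p = 4.55e-05).

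Because the mitochondrial share was highest in YAP1-S127A libraries, the comparison of YAP1-S127A with MX was also fitted with that share as a covariate and with YAP1-S127A replicate 2 as the only library of its group, whose share was 7.40%. The fit on replicate 2 was chosen after seeing the data. With the covariate 4 of the 9 HOX calls remained, 3 lower and 1 higher, namely HOXA3, HOXA5, HOXA13 and HOXB8. Over all tested genes 764 were then higher and 641 lower, against 1476 and 1369 without the covariate. Of the lost calls, HOXA10 (-0.53) and HOXC8 (-0.73) had larger differences than without it (-0.45 and -0.57). The other lost calls had smaller ones, among them HOXA4 (-0.71, against -1.07) and HOXA6 (-1.04, against -1.54). With replicate 2 alone the values were -0.56 for HOXA10, -0.72 for HOXC8, -0.76 for HOXA4 and -0.70 for HOXA6. Without YAP1-S127A replicate 3, 5 of the 9 remained.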

How the data were processed

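The authors deposited 1 table of whole-number read counts per gene for the 9 libraries, with gene names, positions and a gene length in bases. Libraries were made with a stranded mRNA kit, per the labels' protocols. HISAT2, Cufflinks, Salmon 1.9.0 and the mouse build GRCm39 are named per the submitters' processing notes, with no role or order, while the gene identifiers are human. No source used here names the human build, the annotation, the counting tool or its strand setting.

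Counts were scaled by TMM and tested with edgeR 4.0.16 in R 4.3.3 (filterByExpr, quasi-likelihood test, group as the only term, all 9 libraries in 1 fit, Benjamini-Hochberg adjustment over 15492 genes, called at 0.05), after a test on simulated data. CPM uses TMM-scaled libraries, and length scaling uses the deposited length. The Poisson intervals of HOTTIP and the floors (3 counts) cover counting error only. Intervals of log2 fold changes come from the edgeR fit and include the spread between libraries. Alternatives were DESeq2 1.42.0, limma-voom 3.58.1, other scalings, filters, samples and covariates, and each library left out. Members called in any comparison, or among the 2 highest per length in their cluster, have values per library. HOXB9, HOXB13, HOXC13, HOTTIP and HOTAIR were added after their values were seen. Counts, sums and medians cover all members, but 1 HOX gene and 1 list gene are not reported here by name. List genes and neighbours have fold changes where called, up to 3 per list and comparison by p. The members and lists were chosen with earlier results of these data known.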

Additional observations from a re-analysis of the deposited data

How the results depend on the processing

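With libraries scaled to total counts, 311 genes were higher in YAP1 against MX (500 with TMM), 611 higher and 3836 lower in YAP1-S127A against MX (1476 and 1369), and 113 higher and 503 lower in YAP1-S127A against YAP1 (175 and 130). HOX counts in YAP1-S127A against MX were then 1 higher and 18 lower (2 and 7), and summed levels became 113 CPM for HOXA, 213 for HOXB and 22.8 for HOXD with YAP1-S127A, 248 for HOXB with YAP1 and 69.3 for HOXC in MX. With the mitochondrial share as a covariate, YAP1-S127A against MX had 764 genes higher and 641 lower, HOX 1 and 3. With YAP1-S127A replicate 2 alone, assumed to vary like the other groups, it had 704 and 574, HOX 1 and 3, and YAP1-S127A against YAP1 had 98 and 53. HOX genes higher were also 1 with limma-voom and with only the 2 groups compared. YAP1-S127A against YAP1 had 288 higher and 232 lower without a filter, 276 and 202 with only the 2 groups, 217 lower with DESeq2, and 271 and 201 with the replicate block. That block added HOXA3 and HOXC8 to the 5 HOX calls in YAP1 against MX, giving 7, and left 9 and 0 in the others. Whether the numbers pair the samples is not settled. Deviations of same-numbered libraries correlated at -0.240 to 0.306 and others at -0.334 to 0.289, ranges that overlap and cannot exclude a shared effect. Leaving out 1 library gave 302 to 650 genes higher and 299 to 773 lower in YAP1 against MX, with 2 to 5 HOX genes lower. In YAP1-S127A against MX it gave 853 to 1573 lower, with 1 to 2 HOX genes higher and 4 to 8 lower, and in YAP1-S127A against YAP1 75 to 258 higher and 51 to 207 lower. Values that turned in YAP1-S127A against YAP1 were uncalled: HOXA4 (-0.10) had 0.19 with the covariate, 0.20 with replicate 2 alone and -0.29 to 0.0132 with 1 library left out, HOXA6 (-0.70) had 0.13 with replicate 2 alone, and HOXC8 (-0.06) had -0.21 to 0.10 with 1 library left out. The cause of these shifts was not tested. HOXA3, HOXA5, HOXA13 and HOXB8 in YAP1-S127A against MX, and HOXA4, HOXA5 and HOXA13 in YAP1 against MX, stayed called under every alternative fitted. HOXA6, HOXA13 and HOTTIP rest on few counts, which limits their precision.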

Other observations

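Among 36 other homeobox genes of the ANTP class, the wider family that holds the HOX genes, 9 were expressed enough to test. In YAP1-S127A against MX 2 rose (22.2%, beside 9.53% of all tested genes) and 0 fell. MSX1, a factor of limb and craniofacial mesenchyme, was at 3.66, 5.14 and 4.31 CPM with YAP1-S127A, 1.55, 2.15 and 1.91 CPM with YAP1 and 1.18, 1.45 and 1.95 CPM in MX. YAP1-S127A libraries were above all others, with log2 fold changes of 1.51 against MX (SE 0.27, adjusted p = 0.000497) and 1.23 against YAP1 (SE 0.27, adjusted p = 0.0184, edgeR). The difference from YAP1 was not called without any YAP1 library or YAP1-S127A replicate 2 or 3 (adjusted p = 0.0524 to 0.108). In YAP1 against MX 0 of the 9 were called, beside 6.81% of all tested genes.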
